A study of Mus musculus with 11 samples.

Results

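The genes of major histocompatibility complex (MHC) class II antigen presentation were described in activated mouse CD4 T cells that carried an empty retrovirus or one encoding FoxP3. The 8 genes were chosen by name, with earlier results of these data known: H2-Aa, H2-Ab1, H2-Eb1, Cd74, H2-DMa, H2-DMb2, H2-Oa and Ciita. Every probe set that the array annotation pairs with exactly 1 of these symbols was taken, which gave 18 probe sets out of 34945 tested, and 8 genes out of 18193. By the RefSeq gene table (GRCm38.p6), the 6 genes of the H2 complex lie on chromosome 17, Cd74 on chromosome 18 and Ciita on chromosome 16.

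All cells were naive CD4 T cells (CD25 negative, CD45RB high) that had been sorted out of BALB/cA spleen and lymph node. They were stimulated with anti-CD3e at 0.5 µg/ml, IL-2 at 10 ng/ml and syngeneic splenocytes without T cells, given 20 Gy, spin-infected 24 h later, kept in IL-2, and sorted as GFP-high CD4+ cells on day 7. The 4 groups differed in the insert of the MIGR1 retroviral vector: mock cells carried the vector alone (3 arrays), WT cells mouse wild-type FoxP3 (3 arrays), A384T cells FoxP3 with the A384T substitution (3 arrays) and R397W cells FoxP3 with the R397W substitution (2 arrays). FoxP3 is the forkhead transcription factor of regulatory T cells, here driven by a retrovirus in conventional T cells rather than from its own locus, and both substitutions lie in its forkhead domain. Whether a group's arrays stand for separate cultures or mice is not in the labels, and each p-value thus measures the scatter among these arrays alone, part or all of which can be technical. The feeder spleen cells can hold B cells, macrophages and dendritic cells, all of which carry class II, and the sort was for CD4 and GFP.

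Class II molecules are pairs of an alpha and a beta chain that show peptides from the endosome to CD4 T cells. The invariant chain, encoded by Cd74, guards the new groove; H2-DM then removes the remnant of the invariant chain and loads peptide, and H2-DO inhibits H2-DM. The genes share a promoter module that is read by the RFX complex, NF-Y and the co-activator CIITA. Mouse T cells are generally held to transcribe little class II of their own, and they can take up class II protein from antigen-presenting cells.

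The promoter bases of members with different patterns were searched for short strings of that module, and a match does not show that the module lies there. The lines give the 250 bases before the RefSeq transcription start (GRCm38.p6) of H2-Oa and H2-DMb2, which moved in opposite directions, and of H2-Aa and H2-Eb1, which did not pass the test. Capitals mark 2 motifs, GATTGG (the Y box core that NF-Y binds; CCAATC on the other strand) and AGCAAC (an RFX half-site of the X box).
H2-Oa (chr17:34092129-34092378, plus strand): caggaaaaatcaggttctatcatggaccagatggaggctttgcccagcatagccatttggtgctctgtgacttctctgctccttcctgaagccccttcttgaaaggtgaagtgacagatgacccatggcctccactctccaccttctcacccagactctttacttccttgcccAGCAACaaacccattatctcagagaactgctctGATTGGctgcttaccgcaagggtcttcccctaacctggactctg
H2-DMb2 (chr17:34144999-34145248, plus strand): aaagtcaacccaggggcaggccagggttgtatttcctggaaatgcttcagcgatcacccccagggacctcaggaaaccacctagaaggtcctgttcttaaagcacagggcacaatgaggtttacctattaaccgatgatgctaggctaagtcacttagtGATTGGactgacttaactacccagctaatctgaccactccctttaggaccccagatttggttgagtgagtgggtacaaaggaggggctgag
H2-Aa (chr17:34287824-34288073, minus strand): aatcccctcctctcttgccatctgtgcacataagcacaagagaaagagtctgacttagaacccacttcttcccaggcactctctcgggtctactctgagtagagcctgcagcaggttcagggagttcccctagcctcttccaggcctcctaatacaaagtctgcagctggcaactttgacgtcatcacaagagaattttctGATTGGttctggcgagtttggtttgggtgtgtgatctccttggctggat
H2-Eb1 (chr17:34305617-34305866, plus strand): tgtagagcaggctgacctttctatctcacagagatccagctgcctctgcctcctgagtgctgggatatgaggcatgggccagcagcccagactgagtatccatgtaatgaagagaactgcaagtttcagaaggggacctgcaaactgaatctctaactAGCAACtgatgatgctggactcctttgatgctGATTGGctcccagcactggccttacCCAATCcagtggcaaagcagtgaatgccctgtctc
The table held promoters of 5 of the 8 genes, the fifth being H2-DMa; H2-Ab1, Cd74 and Ciita had no entry. GATTGG, searched on both strands, was present in 5 of these 5 genes (5 of 6 promoters), against 14.6% of the 32851 mouse promoters in the table. It began 44 bases before the start in H2-Oa, 49 in H2-Aa, 60 in H2-Eb1, 91 in H2-DMb2 and 199 in 1 of the H2-DMa promoters. AGCAAC was found in H2-Oa and H2-Eb1 (2 of 5 genes, against 12.2% of all promoters), and TAAACA, a forkhead core, in 0 of 5 (12.0% of all promoters). The motifs were kept after several other strings had been looked at in the same promoters. These matches are a description; the reference is C57BL/6J, whose H2 haplotype is not that of BALB/cA, and all 4 groups share the strain.

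Each value below is taken as log2, as RMA usually gives, though no source used here states the base, and is relative to the middle one of the 3 mock arrays, probe set by probe set. Changes between groups can be read from it while expression levels cannot, and 1 log2 unit is a 2-fold change. Over all probe sets the array medians lay between -0.016 and 0.0022, and the median SE of a difference was 0.142 between groups of 3 arrays and 0.159 between 3 and 2; the number of arrays limits the precision. The only Foxp3 probe set lay between -0.34 and 0.26 in mock, -0.07 and 0.11 in WT, 0.10 and 0.33 in A384T, and -0.39 and -0.19 in R397W. The range of each FoxP3 group overlapped that of mock, and R397W lay below WT and A384T. No source used here says whether the probes of this probe set lie within the insert, so it does not check the labels. Because levels are lost, the labelled cell type could not be checked by the level of its markers.

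Class II genes moved in different directions. With WT FoxP3, H2-Oa fell, H2-DMb2 rose at 2 of its 3 probe sets, and the other 15 of 18 probe sets did not pass the test at an adjusted p of 0.05 (limma, Benjamini-Hochberg over all 34945 probe sets). That is 3 of 18, where 3.21% of all probe sets were called in WT over mock. With A384T, 1 of 18 was called (H2-Oa, lower), where 2.70% of all were. None was called in R397W over mock (0.0% of all), A384T over WT (0.114% of all), R397W over WT (2.15% of all) or R397W over A384T (1.83% of all); at an unadjusted p under 0.05 these 4 comparisons had 1, 1, 8 and 6 of 18, where 1.75%, 4.27%, 10.7% and 11% of all probe sets had one. These counts come from the fit without array number as a block. With that block, 6 of 18 were called in WT over mock (8.66% of all), among them the 3 H2-Ab1 probe sets, lower. Block calls in the other comparisons are given at the end. The median difference over the 18 probe sets was -0.01 in WT over mock, as it was over all probe sets. The median size, sign apart, was 0.28 for the members and 0.12 for all. Because the members were chosen with earlier results known, setting their counts and sizes beside all probe sets is a description, not a test. In bulk RNA, fewer cells of a type and less RNA per cell cannot be told apart.

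**Figure D1:**
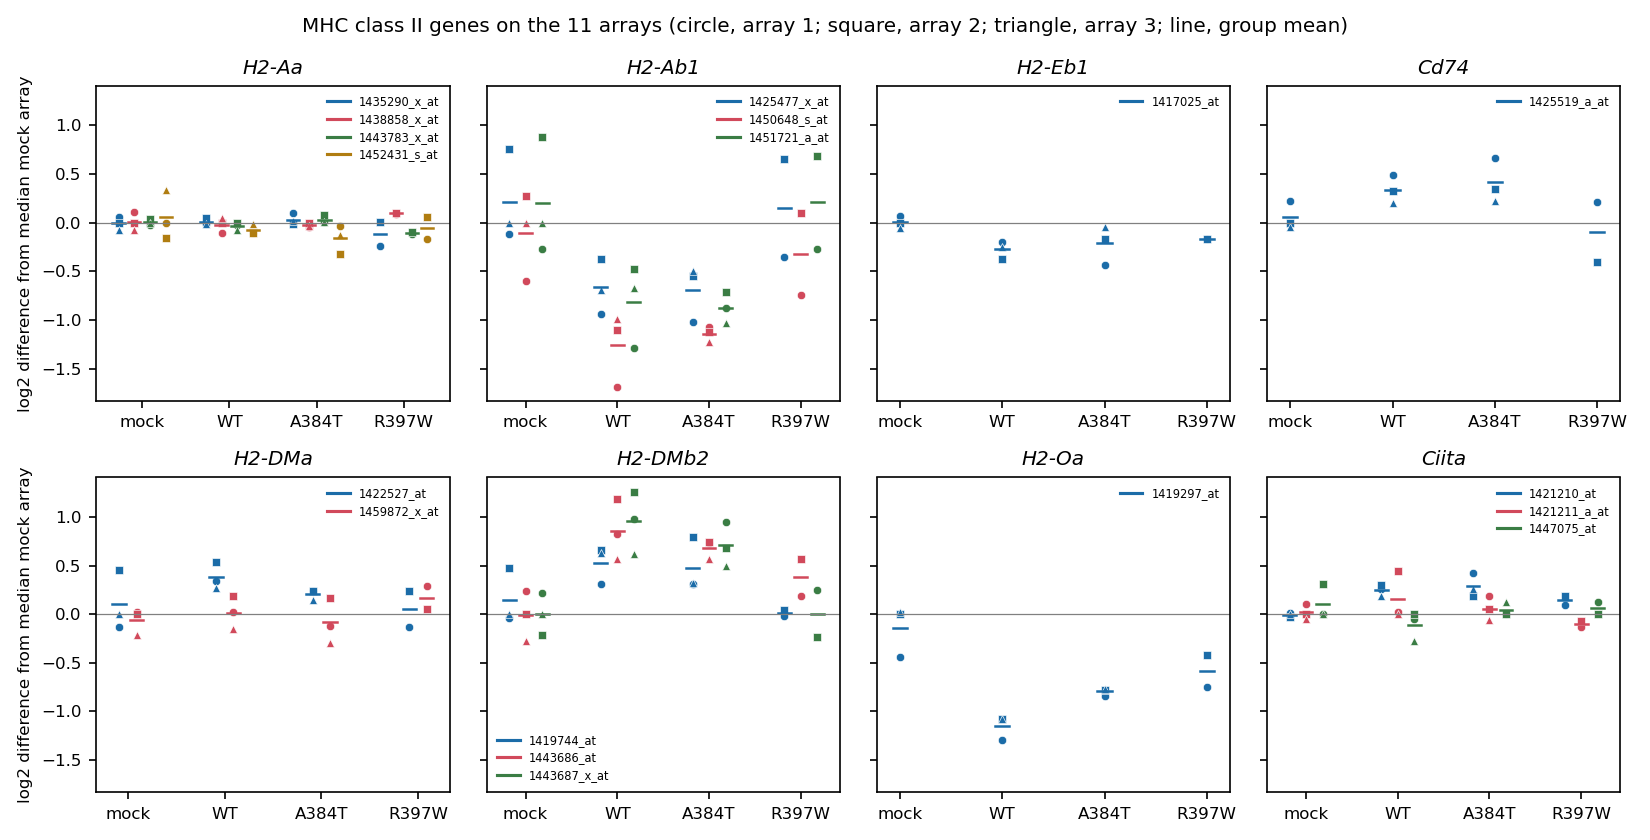
Values of the 18 class II probe sets on the 11 arrays, as log2 difference from the median mock array (vertical axis), by group (horizontal axis); symbols stand for array numbers, colours for probe sets and short lines for group means. H2-Oa and the 3 H2-Ab1 probe sets are low in WT and A384T, 2 H2-DMb2 probe sets are high there, and H2-Aa lies between -0.32 and 0.33 in all groups.

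The classical chains split by gene. H2-Ab1 encodes the beta chain of I-A. At 1450648_s_at its mock arrays 1, 2 and 3 read -0.60, 0.27 and 0, the WT arrays -1.68, -1.10 and -0.99, the A384T arrays -1.08, -1.12 and -1.23, and R397W arrays 1 and 2 -0.74 and 0.10. Every WT and A384T array was below every mock array, and both R397W arrays were above every WT and A384T array. WT minus mock was -1.15 (SE 0.27, 95% interval -1.75 to -0.55), which missed the threshold at an adjusted p of 0.051 (limma), and A384T minus mock was -1.03 (SE 0.27; adjusted p = 0.089).

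The other H2-Ab1 probe sets had the same order. At 1451721_a_at, mock read -0.27, 0.88 and 0, WT -1.29, -0.48 and -0.68, A384T -0.87, -0.72 and -1.03, and R397W -0.27 and 0.68. At 1425477_x_at, mock read -0.12, 0.76 and 0, WT -0.93, -0.38 and -0.69, A384T -1.02, -0.55 and -0.49, and R397W -0.35 and 0.66. At both, WT and A384T lay below mock without overlap, and R397W lay inside the mock range except array 1 at the second, which was below it. The WT differences from mock were -1.02 and -0.88 (limma adjusted p = 0.18 and 0.21), and A384T minus mock -1.08 and -0.90 (adjusted p = 0.15 and 0.20).

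Mock, WT and R397W arrays numbered 1 were lower than those numbered 2 at each H2-Ab1 probe set. Taken within a number, at 1450648_s_at WT minus mock was -1.09, -1.37 and -0.99 for numbers 1, 2 and 3, at 1451721_a_at -1.01, -1.36 and -0.68, and at 1425477_x_at -0.81, -1.13 and -0.69. In the fit with array number as a block, all 3 H2-Ab1 probe sets were lower in WT than in mock, with adjusted p = 0.0020, 0.0046 and 0.0035 in that order (limma). That fit called 6 of 18 members in WT over mock, and 8.66% of all probe sets. Without the block, 1450648_s_at passed when mock array 1 (adjusted p = 0.030), R397W array 1 or R397W array 2 (both 0.034) was left out. Its value ranged from -1.39 to -0.94 over the single arrays left out.

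**Figure D2:**
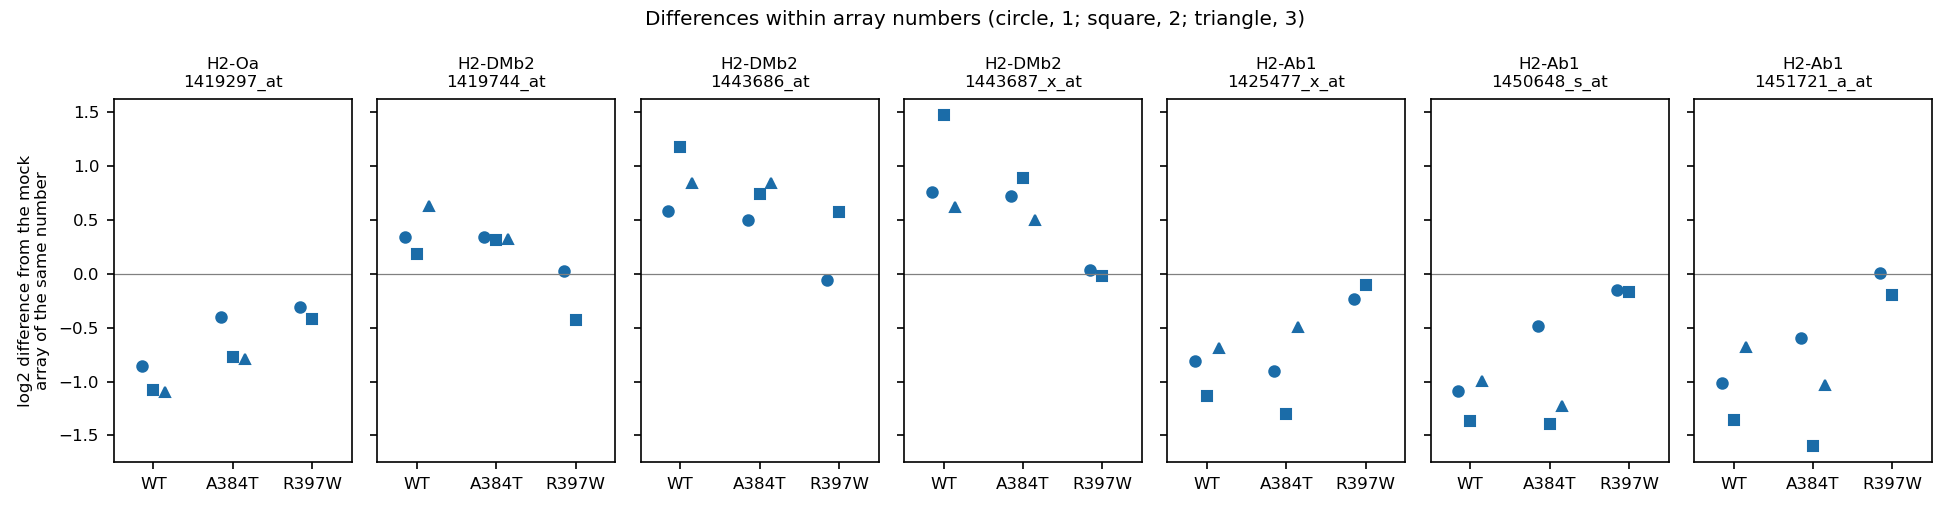
Log2 difference of each WT, A384T and R397W array from the mock array of the same number (vertical axis), for the H2-Oa, H2-DMb2 and H2-Ab1 probe sets; circles, squares and triangles are numbers 1, 2 and 3. WT and A384T lie below 0 for all numbers at H2-Oa and H2-Ab1 and above 0 at H2-DMb2, while R397W lies nearer to 0 at H2-Ab1.

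H2-Aa, the alpha chain that pairs with the H2-Ab1 product, did not follow it. Over 4 probe sets, 3 of them of the _x_at kind that can cross-hybridise, mock arrays lay between -0.16 and 0.33, WT between -0.10 and 0.04, A384T between -0.32 and 0.09, and R397W between -0.24 and 0.10. WT minus mock ranged over the 4 probe sets from -0.13 to 0.01, with 95% intervals inside -0.43 to 0.22, and A384T minus mock from -0.22 to 0.04. None was called (limma adjusted p at least 0.85 in WT over mock). The difference between H2-Aa and H2-Ab1 was not tested.

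H2-Eb1, the beta chain of I-E, read 0.07, 0 and -0.06 on the mock arrays, -0.20, -0.38 and -0.25 with WT, -0.43, -0.16 and -0.04 with A384T, and -0.16 on both R397W arrays. WT lay below mock without overlap, A384T overlapped it, and both R397W arrays had an identical value. WT minus mock was -0.28 (SE 0.11, 95% interval -0.53 to -0.03; limma adjusted p = 0.33), so no change was called.

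Cd74, the invariant chain, read 0.22, 0 and -0.04 on the mock arrays, 0.49, 0.32 and 0.21 with WT, 0.67, 0.35 and 0.22 with A384T, and 0.21 and -0.40 with R397W. It was above the mock array of the same number in 3 of 3 WT and 3 of 3 A384T arrays, but the lowest WT value lay just under the highest mock value and the lowest A384T value equalled it. WT minus mock was 0.28 (95% interval -0.11 to 0.67; limma adjusted p = 0.63) and A384T minus mock 0.35 (-0.03 to 0.74; adjusted p = 0.46). Cd74 and H2-Ab1 thus had opposite signs in WT and A384T, neither called in the fit without the block.

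The peptide editor is made of H2-DMa, its alpha chain, and a beta chain from H2-DMb1 or H2-DMb2. H2-DMb2 rose with WT FoxP3 at 1443686_at, where mock read 0.24, 0 and -0.27, WT 0.82, 1.18 and 0.57, A384T 0.74, 0.74 and 0.57, and R397W 0.18 and 0.57. At 1443687_x_at, mock read 0.22, -0.21 and 0, WT 0.98, 1.26 and 0.62, A384T 0.94, 0.68 and 0.50, and R397W 0.25 and -0.24. All WT and A384T arrays exceeded all mock arrays at both probe sets, and R397W reached the lowest WT value on array 2 at the first and lay just outside the mock range on both sides at the second. At the first, 3 of the 11 arrays had the same value, and the second is of the _x_at kind that can cross-hybridise. The rise in WT was 0.87 (SE 0.18, 1.83-fold; limma adjusted p = 0.029) and 0.95 (SE 0.20, 1.94-fold; adjusted p = 0.029).

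These H2-DMb2 calls rested on most of the arrays in the contrast. Leaving out mock 2, mock 3, WT 1 or WT 2 ended the call at 1443686_at (limma adjusted p = 0.092, 0.11, 0.085 and 0.10) and at 1443687_x_at (0.12, 0.092, 0.099 and 0.12), with differences from 0.71 to 0.95. A384T minus mock was 0.69 and 0.71, not called (limma adjusted p = 0.086 and 0.11). The third probe set, 1419744_at, read -0.04, 0.47 and 0 in mock, 0.31, 0.66 and 0.63 in WT, 0.31, 0.79 and 0.32 in A384T, and -0.01 and 0.04 in R397W; WT overlapped mock, and the difference of 0.39 was not called (adjusted p = 0.42).

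Another pair of probe sets is annotated with both H2-DMb2 and H2-DMb1 and so was outside the rule and not tested. At 1449580_s_at, mock read -0.09, 0.30 and 0, WT 1.33, 1.84 and 1.35, A384T 1.07, 1.28 and 0.71, and R397W -0.10 and -0.02. WT and A384T were above mock without overlap and R397W lay near the mock values. At 1418638_at the group means were 0.09, 0.17, -0.01 and -0.07 in the same order, and the groups overlapped. The probe sets of the beta chain therefore did not read alike, and which transcript each reports cannot be settled from these files.

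H2-DMa stayed near mock. At 1422527_at the mock arrays read -0.13, 0.45 and 0 and the WT arrays 0.34, 0.54 and 0.27, and the groups overlapped. The difference was 0.28 (95% interval -0.08 to 0.63; limma adjusted p = 0.58), and at 1459872_x_at it was 0.08 (-0.24 to 0.40; adjusted p = 0.93).

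H2-Oa, the alpha chain of H2-DO, fell with WT FoxP3. Its single probe set 1419297_at read -0.44, 0 and 0.02 in mock, -1.29, -1.08 and -1.08 in WT, -0.84, -0.78 and -0.77 in A384T, and -0.75 and -0.41 in R397W. The WT arrays were the lowest, the A384T arrays lay between WT and mock with no overlap on either side, and R397W array 2 lay just inside the mock range. The WT difference from mock was -1.01 (SE 0.14, 95% interval -1.33 to -0.69, 2.01-fold lower; limma adjusted p = 0.0035), and the call held in 11 of 11 fits that left out 1 array (adjusted p at most 0.020).

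With A384T, H2-Oa was 1.57-fold lower than mock (difference -0.66, SE 0.14; limma adjusted p = 0.040). Leaving out single arrays ended this call for mock 2 (adjusted p = 0.14), mock 3 (0.15), WT 1 (0.052), WT 2 (0.062), WT 3 (0.061), A384T 1 (0.13), A384T 2 (0.11) or A384T 3 (0.086), while the difference stayed between -0.81 and -0.57. R397W minus mock was -0.44 (95% interval -0.80 to -0.09), with an unadjusted p of 0.020 but an adjusted p of 1.0 (limma), and so was not called.

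Ciita, the co-activator that class II promoters depend on, has 3 probe sets. At 1421210_at mock read 0.01, -0.03 and 0, WT 0.25, 0.30 and 0.19, A384T 0.42, 0.19 and 0.26, and R397W 0.09 and 0.19. All arrays with FoxP3 were above all mock arrays, by small amounts: WT minus mock was 0.26 (95% interval 0.05 to 0.46; limma adjusted p = 0.24) and A384T minus mock 0.30 (0.09 to 0.50; adjusted p = 0.16). The other probe sets gave 0.13 and -0.21 in WT over mock (limma adjusted p = 0.82 and 0.56), and 1447075_at had the same value on 6 of the 11 arrays. No Ciita probe set was called in any of the 6 comparisons.

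**Figure D3:**
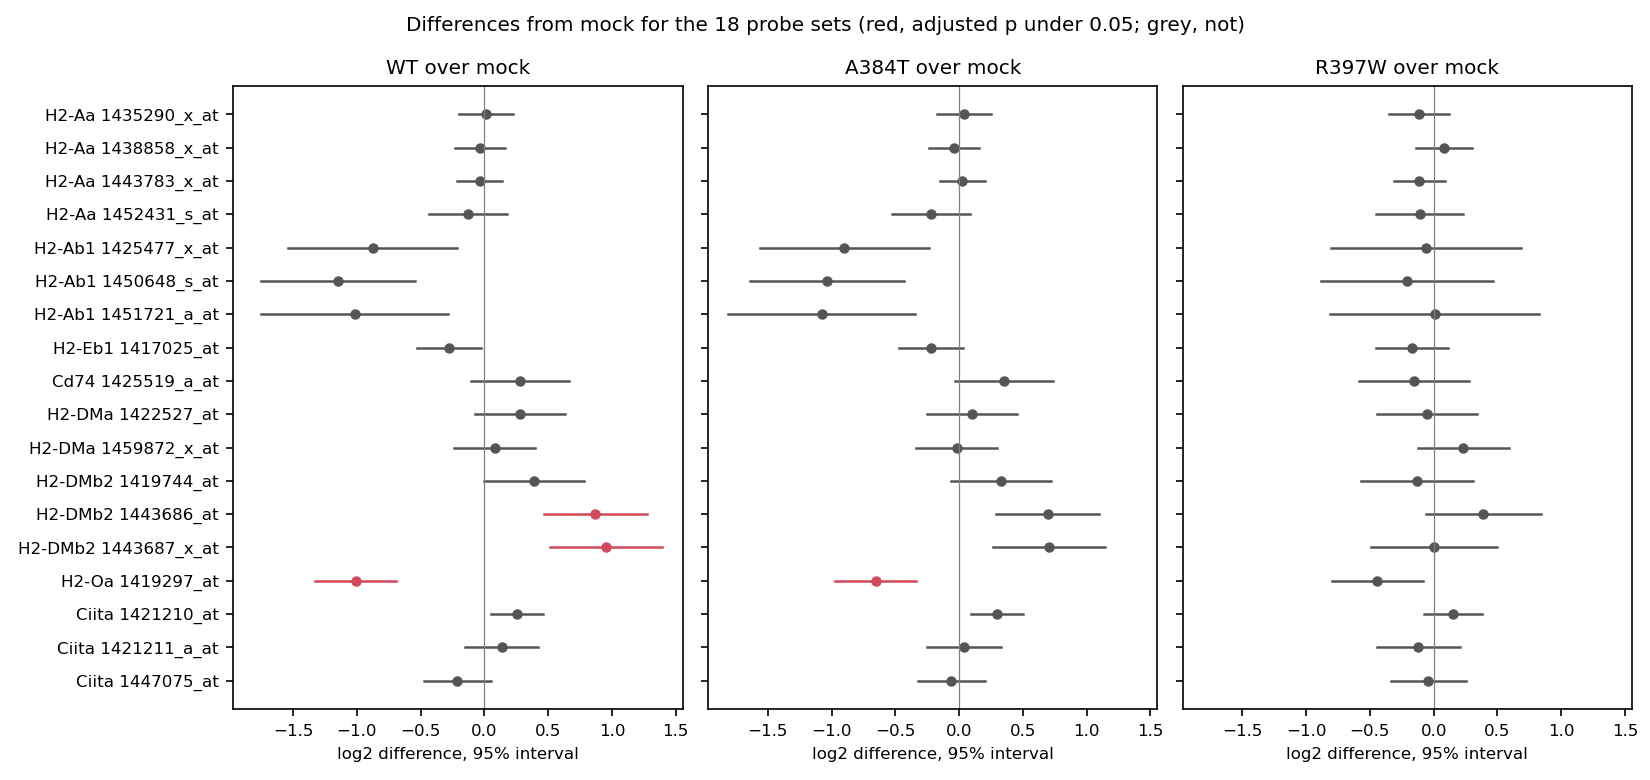
Log2 differences from mock (points) with 95% intervals from limma (lines) for the 18 probe sets, in WT, A384T and R397W. Red marks an adjusted p under 0.05 in the fit without array number as a block: H2-Oa and 2 H2-DMb2 probe sets in WT, H2-Oa in A384T and none in R397W.

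Between the forms of FoxP3, no difference in class II genes passed the adjusted threshold in the fit without array number as a block. A384T minus WT ranged over the 18 probe sets from -0.25 to 0.35. The top of that range was H2-Oa (95% interval 0.04 to 0.67, higher for 3 of 3 array numbers; limma adjusted p = 1.0). For H2-Ab1 the interval of A384T minus WT ran from -0.79 to 0.72 over the 3 probe sets, which leaves room for a difference in either direction.

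R397W over WT shares its WT arrays with WT over mock, so the differences in both are not independent. R397W minus WT was 0.57 for H2-Oa (95% interval 0.21 to 0.92; limma adjusted p = 0.13), 0.94 for H2-Ab1 at 1450648_s_at (0.26 to 1.61; adjusted p = 0.21; 0.51 without R397W array 2 and 1.36 without R397W array 1) and -0.95 for H2-DMb2 at 1443687_x_at (-1.44 to -0.45; adjusted p = 0.064, and 0.043 without WT array 3). None was called in the fit without the block. Groups did not overlap at 11 of 18 probe sets in R397W over WT, where 24.3% of all probe sets did so, and at 8 of 18 in WT over mock, where 16.2% did. The counts were 7 of 18 in A384T over mock (15.3% of all), 5 of 18 in R397W over mock (11.8%), 3 of 18 in A384T over WT (7.72%) and 10 of 18 in R397W over A384T (23.6%). The probe sets of 1 gene are not separate evidence.

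Across the 11 arrays some members ran in opposing courses, given here as a description over arrays that share groups and array numbers. The H2-Ab1 probe set 1450648_s_at correlated with 1451721_a_at of the same gene at a Pearson r of 0.96, with H2-Oa at 0.91, with H2-Eb1 at 0.46 and with the 4 H2-Aa probe sets between -0.14 and 0.45. It ran against Cd74 (r = -0.81), H2-DMb2 1443687_x_at (-0.88) and Ciita 1421210_at (-0.69). The other H2-DMb2 probe sets gave -0.71 (1443686_at) and -0.40 (1419744_at). The other Ciita probe sets went both ways, with -0.31 (1421211_a_at) and 0.42 (1447075_at), and H2-DMa gave -0.13 and -0.03. H2-Oa ran against H2-DMb2 with r = -0.85 at 1443687_x_at, -0.83 at 1443686_at and -0.44 at 1419744_at.

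By likeness over the 11 arrays among 17464 more variable probe sets, the mean profile of H2-Aa, H2-Ab1, H2-Eb1 and Cd74 was nearest to Tgfbr2 (r = 0.98), Abcc1 (0.96), Bop1 (0.96), Arhgap45 (0.95) and B3gnt5 (0.95). That mean weighs every probe set alike, so it mainly follows the large H2-Ab1 changes. H2-Aa was nearly flat and Cd74 ran against H2-Ab1, so it is not a course that these genes share. H2-Oa was nearest to Ankrd13d (r = 0.96), Hdac4 (0.95), Mirt1 (0.95), 1700017B05Rik (0.95) and Tnfsf14 (0.94). For H2-DMb2, 1443687_x_at was nearest to B430306N03Rik (0.98), Plagl2, Odc1, Mxd1 and Ppt1, and 1443686_at to Sptlc1 (0.96), Sar1a, Nadk, Rundc3a and Uros.

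Class II genes outside the rule gave no call. H2-Ea (3 probe sets), H2-Ob, the beta chain of H2-DO, and H2-Eb2 had 0 of 5 probe sets called by limma in all 6 comparisons; at an unadjusted p under 0.05 there was 1, H2-Ob in A384T over mock. H2-Ob read 0.06, -0.97 and 0 in mock, 0.26, 0.02 and 0.13 in WT, 0.63, 1.07 and 0.19 in A384T, and 0.28 and -0.19 in R397W. WT overlapped mock, A384T lay above it, and mock array 2 was the lowest of all. The difference from mock was 0.44 in WT (limma adjusted p = 0.65), but 0.11 without mock array 2. In A384T it was 0.93 (95% interval 0.29 to 1.57; limma adjusted p = 0.16), and 0.60 without mock array 2.

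Among 8 genes of the promoter module (20 probe sets), 1 probe set was called in WT over mock, where 3.21% of all were. Rfxap, a subunit of the RFX complex, read 0.07, 0 and -0.05 in mock, -0.86, -0.90 and -0.71 in WT, -0.59, -0.74 and -0.28 in A384T, and 0.10 and -0.06 in R397W at 1418859_at. WT and A384T lay below mock and R397W without overlap. WT minus mock was -0.83 (SE 0.13; limma adjusted p = 0.0052, at most 0.029 with 1 array left out, but 0.12 without number 1 of every group), and A384T minus mock was -0.54 (adjusted p = 0.052). R397W exceeded WT by 0.84 (limma adjusted p = 0.012); without WT 2, R397W 1 or R397W 2 the adjusted p was 0.052, 0.13 or 0.063. That call was also lost with limma's trended and robust prior, called the trended prior from here on (0.080), quantile normalization (0.064), only the 2 groups (0.053) and without number 1 of every group (0.30). The gene has another probe set that was not called.

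Interferon-gamma signalling, which induces Ciita, had 0 of 14 probe sets called by limma in WT over mock and 0 of 14 in A384T over mock, with 5 and 6 at an unadjusted p under 0.05 (12.3% and 12.5% of all probe sets had one). In R397W over WT 2 of 14 were called, where 2.15% of all were. Jak2, the kinase bound to the receptor, was higher by 0.75 (limma adjusted p = 0.029). Its other probe set gave 0.74 and was not called (limma adjusted p = 0.062). Ptpn2, a phosphatase that acts on JAK kinases, differed by -1.02 at 1425197_at (limma adjusted p = 0.026). At 1425198_at it differed by -0.38, not called (limma adjusted p = 0.14). The rest of its 4 probe sets were not called in any comparison without the block. In R397W over A384T 2 of 14 were called, where 1.83% of all were. Both were Ptpn2 probe sets, with -1.09 at 1425197_at (limma adjusted p = 0.021) and -0.50 at 1425198_at (0.0496). The Jak2 call was lost when 1 of WT 1, WT 2, WT 3, A384T 2, R397W 1 or R397W 2 was left out (limma adjusted p up to 0.21). At 1425197_at the call against WT was lost without R397W 1, R397W 2, WT 1 or WT 3 (up to 0.22), and that against A384T without R397W 1, R397W 2, A384T 1 or A384T 2 (up to 0.18). At 1425198_at the call was lost in 11 of 11 fits that left out 1 array. Socs1, its feedback inhibitor, differed from mock by 2.31 in WT and 2.03 in A384T, without passing the test (SE 0.61; limma adjusted p = 0.084 and 0.14). In the block fit for WT over mock, which called 8.66% of all probe sets, 5 of 14 were called, 3 higher and 2 lower. Socs1 was among those higher (limma adjusted p = 5.81e-06).

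Endosomal enzymes that cut the invariant chain and antigen changed in both directions. In WT over mock, 1 of 23 probe sets rose and 2 fell, where 3.21% of all were called. In A384T over mock 1 rose and 3 fell, where 2.7% of all were called. The list's median difference in WT was 0.06, against -0.01 over all probe sets. Ctsl, the cathepsin that finishes cleavage of the invariant chain in thymic epithelium, rose at 1451310_a_at from 0.26, -0.39 and 0 in mock to 2.39, 2.74 and 2.14 in WT and 2.30, 2.68 and 2.16 in A384T, with R397W at 0.89 and 0.25. The rise was 2.47 in WT (SE 0.23, 5.52-fold; limma adjusted p = 0.00035) and 2.42 in A384T (5.35-fold; adjusted p = 0.00041). R397W was 3.63-fold below WT (limma adjusted p = 0.0049; 0.061 without R397W array 2, and 0.0501 without number 1 of every group). After quantile normalization R397W minus WT at Ctsl was -0.95 in place of -1.86, and not called (limma adjusted p = 0.33). Another Ctsl probe set was not called in the fit without the block.

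Ifi30, the reductase of antigen disulphides, fell from 0, 0.11 and -0.17 in mock to -0.74, -1.05 and -0.88 in WT, and Ctsd, an aspartic protease, from 0, 0.21 and -0.02 to -0.88, -0.72 and -0.59. WT and mock did not overlap for either gene, with WT minus mock of -0.87 and -0.79 (SE 0.13 for each; limma adjusted p = 0.0042 and 0.0092). In WT, both calls were lost with the trended prior (limma adjusted p = 0.056 for Ifi30 and 0.074 for Ctsd) and without number 1 of every group (0.051 and 0.072), and that of Ifi30 after quantile normalization (0.064). In A384T over mock Ctsd was lower by 0.91 on the log2 scale (limma adjusted p = 0.0047; 0.0501 with the trended prior and 0.062 without number 1 of every group). Ifi30 was -0.63 (limma adjusted p = 0.027; 0.090, 0.11, 0.076 and 0.11 without mock 1, mock 2, A384T 1 and A384T 2; 0.19 with the trended prior, 0.28 after quantile normalization, 0.070 with only the 2 groups and 0.18 without number 1 of every group). Lgmn, asparaginyl endopeptidase, read -1.06, -0.83 and -0.56 in A384T against -0.13, 0 and 0.28 in mock (difference -0.87; limma adjusted p = 0.0100; 0.066 with only the 2 groups and 0.084 without number 1 of every group). In WT it differed from mock by -0.45 (limma adjusted p = 0.17; blocking on the number gave 0.014), and A384T minus WT was not called (-0.42; adjusted p = 0.88).

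**Figure D4:**
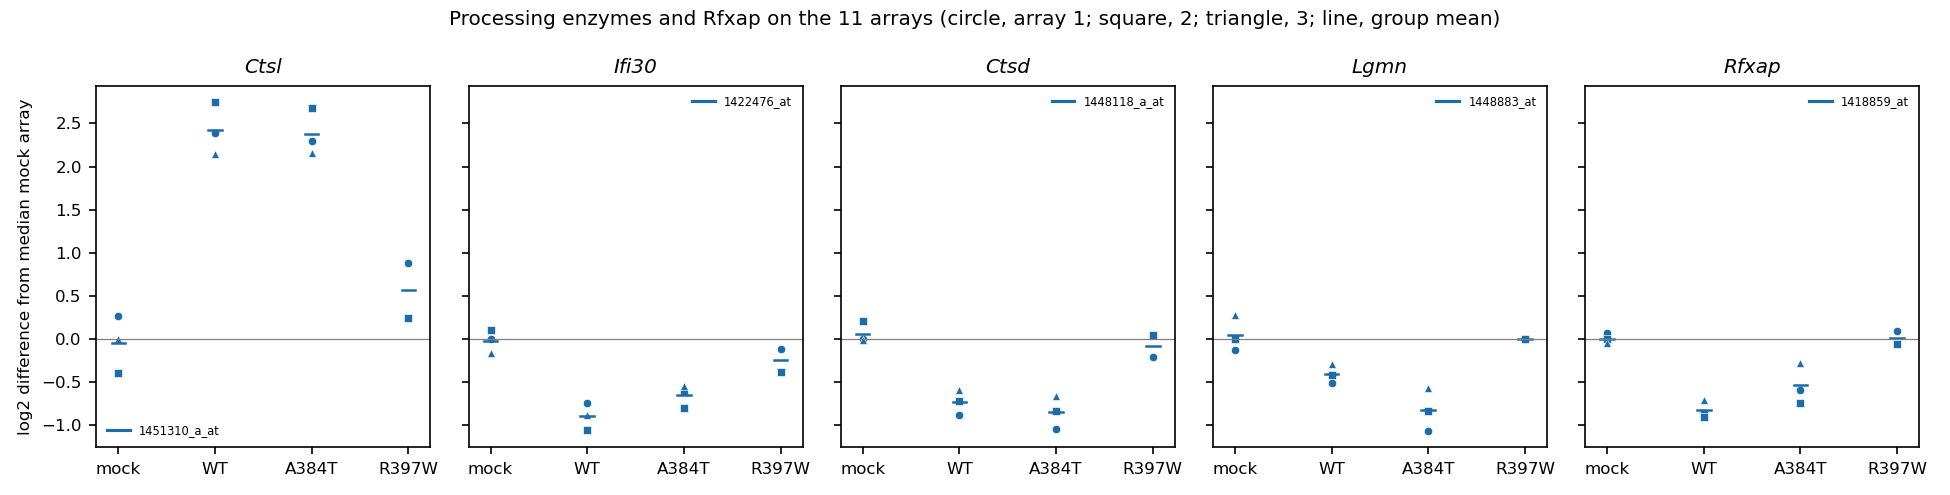
Values on the 11 arrays, as log2 difference from the median mock array, for Ctsl, Ifi30, Ctsd, Lgmn and Rfxap by group; symbols are array numbers and lines are group means. Ctsl is above 2 on all WT and A384T arrays, the other genes are below 0 there, and R397W is nearer to mock.

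Ligands that antigen-presenting cells show beside class II were read on the same arrays. Of 14 probe sets for such ligands, 4 rose in WT over mock and 0 fell, where 3.21% of all probe sets were called. They were Cd274 (difference 1.99, limma adjusted p = 0.0088), Pdcd1lg2 (1.82, 0.0019), Icosl (1.69, 0.0028) and Cd86 (0.93, 0.018). Without mock 2, mock 3, WT 1 or WT 2, Cd86 had an adjusted p of 0.075, 0.062, 0.078 or 0.080. It was also not called with the trended prior (limma adjusted p = 0.0504) or quantile normalization (0.062), and without number 1 of every group neither Cd86 (0.075) nor Cd274 (0.082) was. Icosl and Cd86 each have another probe set, which was not called in the fit without the block. The median of the list in WT over mock was 0.59. Blocking on array numbers gave 8 of 14 called there, 8 higher and 0 lower, where it called 8.66% of all probe sets. In A384T over mock 3 of 14 were called, all higher (2.7% of all probe sets), and in R397W over WT 4 of 14, all lower (2.15% of all). Each of these 2 comparisons had an alternative setting without any call. Of 45 probe sets of the class I pathway, 0 were called in WT over mock by limma, and 0 had an unadjusted p under 0.05 (3.21% and 12.3% of all). Their median was 0.02. Tap2 was called in A384T over mock (0.62, limma adjusted p = 0.027) and in R397W over A384T (-0.78, limma adjusted p = 0.020). Neither Tap2 call held under every alternative setting.

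The markers of cells that normally carry class II were read on the same arrays. Over all probe sets, 3.21% were called in WT over mock and 2.7% in A384T over mock. An unadjusted p under 0.05 in WT over mock was found for 12.3% of all. Of 21 B cell marker probe sets (13 of 14 listed genes), 0 were called in WT over mock by limma (3 at an unadjusted p under 0.05), and the mean over the list lay between -0.04 and 0.07 on the mock arrays, -0.05 and 0.01 with WT, -0.03 and 0.04 with A384T, and -0.04 and -0.02 with R397W. Of 21 macrophage and dendritic cell marker probe sets (15 of 15 genes), 0 were called in WT over mock by limma (1 at an unadjusted p under 0.05), and the mean lay between -0.06 and 0.06 in mock, -0.04 and 0.08 in WT, -0.10 and -0.04 in A384T, and 0.04 and 0.05 in R397W. In A384T over mock, 1 macrophage gene, Adgre1, was lower (-1.13, limma adjusted p = 0.011), and R397W exceeded A384T by 1.19 (limma adjusted p = 0.020). The B cell gene Bank1 was lower in R397W than in A384T (-1.17, limma adjusted p = 0.027). These calls did not hold under every alternative setting. The block fit called Bank1 higher in WT and in A384T than in mock (limma adjusted p = 0.046 and 0.0097). The mean over 14 T cell marker probe sets (10 of 11 genes) lay between -0.12 and 0.11 in mock, -0.25 and -0.08 in WT, -0.20 and 0.07 in A384T, and -0.12 and 0.18 in R397W. In WT over mock 3 of these 14 were called by limma: Cd2, an adhesion receptor, was higher by 0.62 (adjusted p = 0.0079), Cd5, an inhibitory receptor, differed by -0.47 (0.039), and Zap70, a kinase of the T cell receptor, by -0.43 (0.042). In A384T over mock 3 were called, Cd2 higher by 0.61 (limma adjusted p = 0.0094), Cd28, the costimulatory receptor, at -0.96 (0.0096) and Cd5 at -0.46 (0.048). Cd28 and Zap70 have other probe sets, which were not called in the fit without the block. With single arrays left out, Cd2 and Cd28 kept these calls in 11 of 11 fits, Cd5 in 2 (without WT 3 or A384T 1) for WT and 0 for A384T, and Zap70 in 2 (without mock 3 or A384T 3). The part of such cells in the levels of H2-Oa, H2-Ab1 and H2-DMb2 was not tested, and since levels are lost, which defining markers are at background could not be read.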

How the data were processed

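Affymetrix arrays measured total RNA in 11 samples, grouped by their titles. Per the submitters' processing notes, the authors used RMA, with no version named; the deposited values were taken as log2. The median of the 3 mock arrays was 0 at all 45101 probe sets. No source used here records that centring or the base of the logarithm; levels, and comparisons between probe sets, are lost.

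Gene names came from the platform annotation: 34958 probe sets had 1 symbol, 932 several and 9211 none, and 13 control probe sets were left out, which left 34945. The linear model in limma (3.58.1, under R 4.3.3) gave every probe set 4 group means over 11 arrays (7 residual degrees of freedom), with 6 contrasts, eBayes, and Benjamini-Hochberg adjustment over all probe sets of a contrast, at a threshold of 0.05. The script was tested on simulated data. Tables and figures used Python 3.11.15, pandas 2.3.3 and matplotlib 3.10.9.

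The members and gene lists were chosen with earlier results of these data known. All member probe sets are described; from each related list, genes called in any comparison could be named, at most the 4 with the largest difference, and Socs1 and H2-Ob were named after their values were seen. The 5 genes most like a member were taken by Pearson's r among probe sets with an SD at or above the median.

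Arrays of different groups share numbers in the titles. Deviations from the group means of same-numbered arrays correlated at 0.504 to 0.672 in WT and mock (3 pairs) and at 0.153 to 0.719 in A384T and WT, all over 0.1, so the numbers were read as pairing these groups; in A384T and mock the range was 0.0858 to 0.578, and the R397W contrasts have 2 pairs. Arrays of unlike number in A384T and WT reached 0.284 (WT 3 with A384T 2) and 0.144 (WT 2 with A384T 3), and the rest were negative. Numbers that pair WT with both mock and A384T would also pair A384T with mock, so the split rests on the cut of 0.1. The block was fitted once over all 4 groups, so its p-values in WT over mock also use the numbers of the A384T and R397W arrays. The reading of the numbers as pairing was made with the calls of both fits known. Alternatives were the block, another prior, other scaling, a filter, fewer groups, 1 probe set per gene, and fits without single arrays.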

Additional observations from a re-analysis of the deposited data

How the results depend on the processing

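Of 1962 values of 108 member results under the alternatives, 1904 kept their side of the threshold, 28 lost a call, 30 gained one and 0 called results changed sign; 82 uncalled values (4.18%) did. With 1 array left out, WT over mock had from 1 to 4 member probe sets called, A384T over mock from 0 to 2, R397W over WT from 0 to 1, and the remaining 3 comparisons 0. WT over mock had 1 call without mock 2, mock 3, WT 1 or WT 2. It had 0 calls with a trended and robust prior (H2-Oa at a limma adjusted p of 0.074), 1 after quantile normalization and 1 with only the 2 groups. A384T over mock had 0 under each of these 3 settings, and 2 without number 1 of every group. R397W over WT had 1 call when the least variable 30% of probe sets were left out. Calls over all tested probe sets moved too. In WT over mock they went from 1121 to 648 without WT 1 and 1137 without A384T 1. They were 833 with only the 2 groups and 1140 after the filter. In A384T over mock they went from 942 to 587 without A384T 1, and to 531 with only the 2 groups. The filter moved R397W over WT from 752 to 765. The cause of these changes was not tested, though some settings hold fewer arrays or fewer probe sets.

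The array numbers were read as pairing only WT with mock and A384T with WT, so the block in the other comparisons does not rest on that reading. With array number as a block there were 6 calls for WT over mock (8.66% of all probe sets) and 6 for A384T over mock (8.36%). There were 8 for R397W over WT (6.40%) and 5 for R397W over A384T (6.51%). The other 2 comparisons stayed at 0 (0.0% for R397W over mock, 0.589% for A384T over WT). Calls gained this way for A384T over mock were H2-Ab1, lower (limma adjusted p = 0.0033 to 0.0041 over 3 probe sets), and H2-DMb2, higher (0.0083 and 0.018). R397W over WT gained H2-Oa (0.011) and H2-Ab1 (0.015 to 0.016), higher, and H2-DMb2 (0.0059 to 0.046 over 3 probe sets) and Cd74 (0.035), lower. R397W over A384T gained H2-Ab1 (0.012 to 0.028), higher, and H2-DMb2 1443687_x_at (0.026) and Cd74 (0.019), lower. Over all probe sets the block raised the count from 1121 to 3026 for WT over mock and from 942 to 2923 for A384T over mock. Quantile normalization lowered it to 450 and 424, and the trended prior to 497 and 369.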
